A study of Mus musculus with 10 samples.

Results

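The 9 S100 genes described here are S100a1, S100a4, S100a6, S100a10, S100a11, S100a13, S100a14, S100a16 and S100g. They were taken by name from the 23810 genes of the deposited table of cells, with no threshold on their values, and all 9 were present. UMIs (unique molecular identifiers, 1 per captured transcript molecule) of each gene were summed per library and per cell class of the authors' annotation. Levels are given in CPM, the UMIs of the gene scaled to all UMIs of the same cells.

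S100 proteins are small calcium-binding proteins with a pair of EF-hand loops. Most of them form dimers, open a binding surface when calcium rises, and attach to partner proteins such as the annexins, which bind membranes. S100g (calbindin-D9k) instead acts as a monomer that buffers and carries calcium through the absorptive cell of the small intestine, and its gene is a classical target of vitamin D. S100a8 and S100a9, which form calprotectin, belong to the same family and mark neutrophils.

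The study measured single-cell transcriptomes of mouse proximal small intestinal crypts grown as organoids in Matrigel, and of freshly isolated colonic crypts. ENR-organoids (3 libraries, passages 2, 7 and 3) grew with R-Spondin 1, Noggin and EGF. Hyper-organoids, also 3 libraries (passages 1, 6 and 3), grew in LDN193189, GSK-3 Inhibitor XV, Pexmetinib, VPA (a histone deacetylase inhibitor), EPZ6438 (an EZH2 inhibitor), EGF, R-Spondin 1 conditioned medium and FGF2. The -VE-organoids (2 libraries, passages 1 and 6) grew in the Hyper medium without VPA and EPZ6438. Libraries with the same number share a prefix of their library code, and each such set was taken as a culture series, which the labels do not state. In the sets numbered 1 and 2 the Hyper- and -VE-organoids were derived from ENR-organoids. Those numbered 3 are ENR- and Hyper-organoids started from primary crypts. A colonic library held crypts of normal mice and the other those of mice given dextran sulfate sodium (DSS), which injures the colonic epithelium. The labels give no strain or genotype for these libraries and do not tie organoid libraries to separate animals, so p-values measure the spread between these cultures. They also do not say how many mice a colonic library holds.

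The kept cells numbered 1983 to 4293 per organoid library, with 89124015 to 170019527 UMIs, and 1132 (normal) and 1933 (DSS) in the colon, with 19906845 and 32397122 UMIs. The 8 epithelial marker genes (Epcam, Cdh1, keratins and others) were all detected in every library. In the organoids, 9 leukocyte markers summed to between 4.12 and 7.14 CPM, with Ptprc at 0 in 7 of 8 libraries, and 7 stromal markers summed to at most 0.859 CPM. The sum of the 4 revival stem markers (Clu, Anxa1, Ly6a, Basp1) was highest in the class annotated as revival stem, at 3882 CPM. Basp1 alone was at 0 in the revival stem cells of -VE library 2 and Hyper library 1, against 0.0413 and 6.22 CPM in their other cells. The other classes likewise led in their own marker list, except that the stem list was nearly as high in the transit amplifying class (1491 against 1496 CPM). The secretory classes shared markers. The Paneth class held 16485 CPM of the goblet list, the goblet class 7321 CPM of the Paneth list, and the enteroendocrine class 3792 CPM of the goblet and 2528 CPM of the Paneth list. Their part in the differences between media within these classes was not tested. Barcode sequences found in more than 1 library numbered 79.

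Of the members, 8 lie on chromosome 3 and S100g lies on the X chromosome (coordinates in mm10 from GENCODE M21). S100a1 (chr3:90511034-90514392, minus strand), S100a13 (chr3:90514435-90524581), S100a14 (chr3:90526856-90528837) and S100a16 (chr3:90537254-90543151) are neighbours within 32118 bases. S100a4 (chr3:90603771-90606045) and S100a6 (chr3:90612882-90624181) follow, so that the 6 genes span 113148 bases. S100a11 (chr3:93520488-93526287) and S100a10 (chr3:93555080-93564643) lie 2896306 bases further on, with 28792 bases between them. All 8 genes are on the plus strand except S100a1. S100g (chrX:162961992-162964599, minus strand) overlaps Ctps2 on the opposite strand. S100a4 overlaps the predicted gene Gm42674 on the same strand, and S100a11 has a processed pseudogene, so reads of S100a4 and S100a11 could in part have been assigned elsewhere.

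S100a1 and S100a13 are transcribed away from each other. Only 42 bases separate their annotated ends, and this stretch is shown because the levels of both genes moved together across cell classes (below). It lies at chr3:90514393-90514434, is given here on the plus strand in lower case, and has a GC content of 54.8%.
S100a1 to S100a13 gap: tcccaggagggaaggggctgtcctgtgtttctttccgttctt

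RefSeq promoter windows (GRCm38.p6, the assembly of mm10) were matched for 7 of the 9 members, in 8 windows, since S100a16 has 2. The windows were searched on both strands for TGANTCA (AP-1), GGAATG (TEAD), AGGTCA and GGTTCA (nuclear receptors) and TATAAA. The upstream parts of S100g, S100a11 and S100a6 are printed because S100g was the member called over all cells and S100a6 and S100a11 had the largest differences between Hyper- and ENR-organoids among the calls within classes, in enterocytes, with matches in capitals, 5′ to 3′ on the strand of the gene.
S100g (chrX:162964600-162964849, minus strand): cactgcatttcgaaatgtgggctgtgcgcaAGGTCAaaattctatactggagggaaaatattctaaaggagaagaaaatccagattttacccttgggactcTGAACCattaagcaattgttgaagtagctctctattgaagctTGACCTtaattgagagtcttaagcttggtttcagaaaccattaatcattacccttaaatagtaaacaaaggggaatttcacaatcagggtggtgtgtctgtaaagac
S100a11 (chr3:93520246-93520487, plus strand): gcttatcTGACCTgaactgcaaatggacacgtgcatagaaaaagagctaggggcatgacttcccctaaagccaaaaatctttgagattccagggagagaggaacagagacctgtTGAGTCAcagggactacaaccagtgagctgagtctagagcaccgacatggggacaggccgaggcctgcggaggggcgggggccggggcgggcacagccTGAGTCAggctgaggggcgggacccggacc
S100a6 (chr3:90612644-90612881, plus strand): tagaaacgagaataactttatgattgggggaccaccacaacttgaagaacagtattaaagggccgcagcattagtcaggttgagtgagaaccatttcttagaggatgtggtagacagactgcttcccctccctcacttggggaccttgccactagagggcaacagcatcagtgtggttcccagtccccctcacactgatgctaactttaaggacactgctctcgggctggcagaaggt

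S100g held AGGTCA 220 and, on the other strand, 107 bases before its start, and GGTTCA on the other strand at 149 bases. S100a11 held TGANTCA 128 and 30 bases before its start, and AGGTCA on the other strand at 235 bases. No motif matched upstream of the start of S100a6. Over all 8 windows of 300 bases, 4 held AGGTCA against 16.3% of 32851 promoter windows, 2 held TGANTCA (7.81%), 2 held GGTTCA (10.4%), 2 held TATAAA (13.6%) and 0 held GGAATG (14.7%). These are matches of letters only.

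Each member had its own distribution over the epithelial classes (the plot of levels by class). The classes were found by clustering all genes of the same cells, so levels in them are a description with no test. They cover libraries with at least 10 cells of the class. No Hyper library held that many enterocyte progenitors, 1 held that many Paneth cells, and no ENR library held revival stem cells. Medians of different classes therefore cover unlike sets of media.

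**Figure D1:**
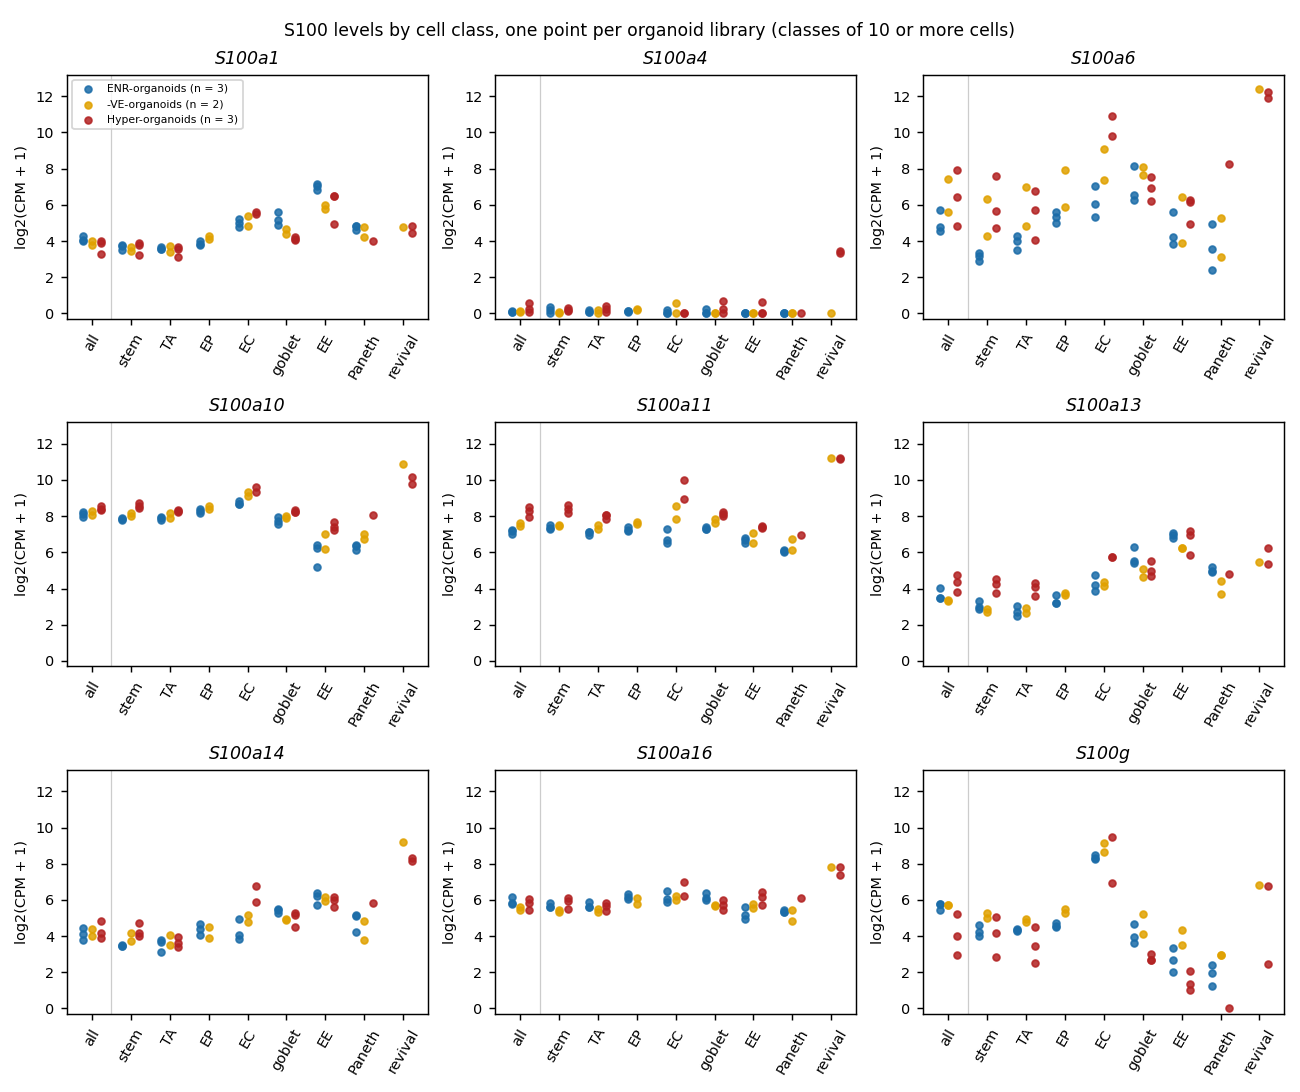
Level of each S100 gene, as log2(CPM + 1), by annotated cell class; each point is 1 organoid library (blue ENR, yellow -VE, red Hyper), drawn where the library held 10 or more cells of the class (all: all kept cells; TA: transit amplifying; EP: enterocyte progenitor; EC: enterocyte; EE: enteroendocrine). S100a6, S100a10, S100a11, S100a14 and S100a16 were highest in the revival stem class, S100a1 and S100a13 in the enteroendocrine class and S100g in enterocytes, while S100a4 was near 0 outside the revival stem class.

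The annexin-binding members were highest in the revival stem class. S100a6 (calcyclin) ranged from 3782 to 5452 CPM there over 3 libraries. In the 8 and 5 revival stem cells of -VE library 1 and Hyper library 1 it was 1724 and 2922 CPM. The median of S100a6 over libraries was 163 CPM in enterocytes and 154 in goblet cells and at most 47.9 CPM in the other classes. The last value, that of enterocyte progenitors, covers no Hyper library. The order also differed by medium. In ENR-organoids the median was 90.7 CPM in goblet cells and 65.9 CPM in enterocytes, while in Hyper-organoids enterocytes (896 and 1932 CPM) lay above goblet cells (73.2 to 188 CPM). S100a11, the partner of annexin A1, ranged from 2282 to 2392 CPM in the revival stem class over the same 3 libraries. In the fewer such cells of -VE library 1 and Hyper library 1 it was 1813 and 1113 CPM. Enterocytes came next by the median over libraries, at 90.7 to 1039 CPM. In ENR-organoids their median (103 CPM) lay below those of stem (161), goblet (156), enterocyte progenitor (149) and transit amplifying cells (136). S100a10 (p11), the partner of annexin A2, ranged from 892 to 1891 CPM in the revival stem class and from 407 to 793 in enterocytes. These ranges overlapped neither each other nor that of the enterocyte progenitors (292 to 376). The enterocyte range did overlap that of stem cells (223 to 415 CPM). S100a10 was lowest in the enteroendocrine and Paneth classes, with medians of 106 and 96.1 CPM and overlapping ranges.

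S100a14, an epithelial member, and S100a16, a widely expressed member, were also highest in the revival stem class, at 284 to 581 and 164 to 229 CPM. In the 8 and 5 revival stem cells of -VE library 1 and Hyper library 1, S100a14 was 308 and 150 CPM. S100a16 was 146 and 116 CPM in these cells, the latter within its enterocyte range (58.5 to 126 CPM). S100a14 came next in the enteroendocrine class (47.8 to 83.9 CPM), whose range lay below that of the revival stem class and above that of goblet cells (21.4 to 44.3 CPM) but overlapped that of enterocytes (13.1 to 109 CPM). In the Hyper libraries enterocytes (57.8 and 109 CPM) had a higher mean than enteroendocrine cells (47.8 to 69.2 CPM). For S100a16 the classes below the revival stem class had overlapping ranges throughout, with medians from 41.0 CPM (Paneth) to 73.0 CPM (enterocytes).

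S100a1, known best for calcium handling in muscle, and S100a13, which takes part in the export of FGF1, both had their highest median in the enteroendocrine class. S100a1 ranged from 29.8 to 141 CPM there and was lowest in stem (8.52 to 13.9 CPM) and transit amplifying cells (7.61 to 12.2 CPM), whose ranges overlapped. S100a13 ranged from 56.9 to 145 CPM in the enteroendocrine class and from 4.59 to 19.2 CPM in transit amplifying cells. Over the 50 sums of 1 class in 1 library with at least 20 cells, the 2 neighbours gave the highest correlation of any pair of members (Pearson's r of log2(CPM + 1) = 0.88). S100a13 and S100a14 followed (r = 0.86), then S100a10 and S100a11 (r = 0.78), and S100a6 and S100a11 (r = 0.77). The lowest r was that of S100a1 and S100a10 (−0.41). These sums share libraries and depth, and the r values are descriptive.

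S100g was an enterocyte transcript. It ranged from 121 to 710 CPM in enterocytes, against medians of 25 CPM in enterocyte progenitors, 20.7 in stem, 19.8 in transit amplifying, 12.9 in goblet, 4.34 in enteroendocrine and 3.61 in Paneth cells. In the revival stem class it was 113 CPM in -VE library 2, 4.51 in Hyper library 2 and 108 in Hyper library 3. The median revival stem cell was at 0 CPM of S100g in each of them. In -VE library 2, 1 of 17 such cells lay above the 99th percentile of the other cells, and the highest reached 1333 CPM. In Hyper library 3, 1 of 26 did, and the highest reached 1722 CPM. S100a4, which promotes cell motility and is abundant in fibroblasts and leukocytes, was at most 0.476 CPM in any organoid library. Within classes its highest values were 9.03 and 9.93 CPM in the revival stem cells of Hyper libraries 2 and 3, from 6 and 15 UMIs, while it was at 0 in the revival stem cells of -VE library 2.

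The revival stem class was rare, but it held a sizeable part of some transcript pools. It had 0 cells in the 3 ENR libraries, 8 and 17 cells in the -VE libraries and 5, 14 and 26 cells in Hyper libraries 1, 2 and 3, or 0.178 to 1.31% of the cells of a library. These cells carried 9.79 and 11.7% of all S100a6 UMIs of the -VE libraries and 20.1, 20.4 and 32.5% of those of the Hyper libraries. For S100a14 the shares were 5.54 and 10.3% in the -VE libraries and 2.09, 7.91 and 19.0% in the Hyper libraries. Single cells of the class varied widely, since S100a6 in Hyper library 3 ran from 142 to 17780 CPM with a median of 2849 CPM over 26 cells. Of these 26 cells, 18 lay above the 99th percentile of the other cells of that library. In the other libraries 4 of 5 (Hyper 1), 7 of 14 (Hyper 2), 5 of 8 (-VE 1) and 13 of 17 cells (-VE 2) did. Hyper library 2 ran from 0 to 11490 CPM with a median of 860 CPM. In every library S100a6 was concentrated in few cells. The top 5% of cells by its UMIs held 53.2 to 73.2% of them, against 12.9 to 18.3% for S100a10. This was not particular to S100a6, since the share was 47.8 to 76.1% for S100g and 100% for the scarce S100a4.

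**Figure D2:**
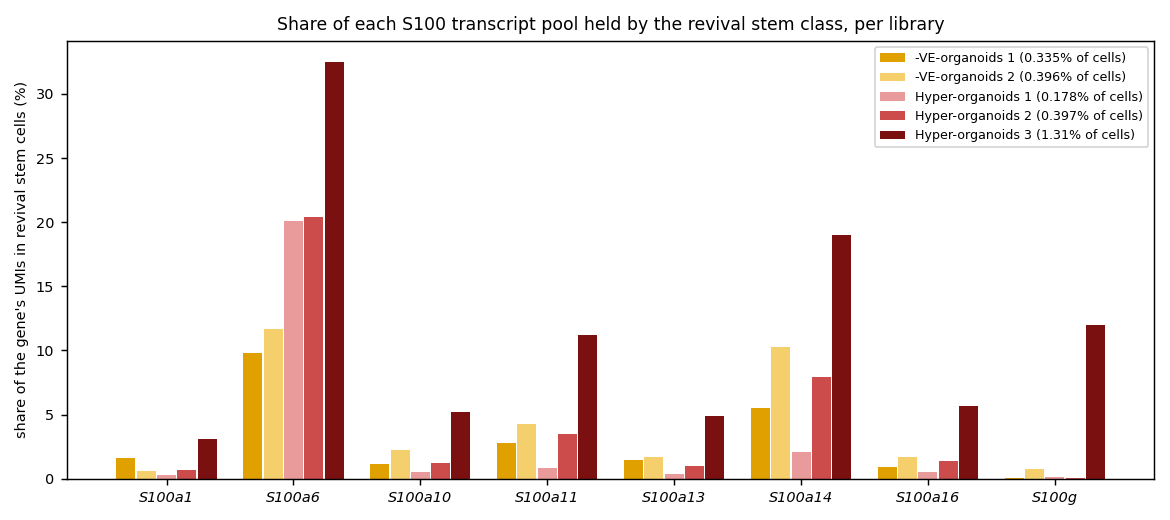
Share of the UMIs of each S100 gene that lay in revival stem cells, in percent, for the 5 organoid libraries that held such cells (S100a4 is not drawn because of its low counts). The class made up 0.178 to 1.31% of cells and held 9.79 to 32.5% of the S100a6 UMIs.

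The first question across media was whether the level of a member over all cells differed. A gene counts as called below where edgeR's quasi-likelihood test gave an adjusted p (Benjamini-Hochberg, over all genes) under 0.05 and the groups differed by 2-fold or more. S100g was lower in Hyper-organoids than in both other groups, and 1 of 9 members was called in Hyper- against ENR-organoids, where 22.9% of all genes were called. In Hyper- against -VE-organoids 1 of 9 was called (18.6% of all genes), again S100g. In -VE- against ENR-organoids 0 of 9 were called (2.55% of all genes), with 1 member at an unadjusted p under 0.05 and 0 called by DESeq2. The comparisons share libraries and are not independent. The median log2 difference over the 9 members was 0.20 in Hyper- against ENR-organoids, beside −0.01 over all genes tested.

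S100g stood at 42.2, 52.8 and 54.3 CPM in the ENR libraries, 51.5 and 52.3 CPM in the -VE libraries and 6.87, 36.9 and 15.1 CPM in the Hyper libraries. All 3 Hyper libraries lay below every other library, and Hyper library 2 was nearest to them. The log2 difference was −1.47 (SE 0.50, adjusted p = 0.0336) against ENR- and −1.54 (SE 0.54, adjusted p = 0.0447) against -VE-organoids. The call against ENR-organoids was lost when any of the 3 ENR libraries, either -VE library or Hyper library 3 was left out (adjusted p = 0.0525 to 0.0973), and the call against -VE-organoids was lost without the same 6 libraries (highest adjusted p = 0.148). Without Hyper library 2 the log2 difference was −2.31 (adjusted p = 0.000977). Wherever a -VE library is left out, here and below, the 1 left is assumed to vary like the other groups.

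The share of enterocytes was lower in Hyper-organoids too, and in sums over all cells fewer enterocytes and less S100g per cell cannot be told apart. Enterocytes were 9.78, 13.1 and 12.4% of cells in the ENR libraries, 6.23 and 5.68% in the -VE libraries and 0.249, 1.65 and 1.06% in the Hyper libraries. They held 57.4 to 66.4% of the S100g UMIs of the ENR libraries, 40.2 and 50.5% of those of the -VE libraries and 8.7 to 33.1% of those of the Hyper libraries. Within enterocytes S100g was 310, 316 and 352 CPM in ENR, 396 and 567 CPM in -VE, and 710 and 121 CPM in Hyper libraries 2 and 3 (58 and 21 cells). The Hyper values lay on either side of all others, and the log2 difference from ENR was 0.33 (SE 0.49, adjusted p = 0.674).

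Outside enterocytes S100g also differed in some classes. In goblet cells it was 24.2, 11.2 and 14.6 CPM in ENR, 35.7 and 16.4 CPM in -VE, and 7.05, 5.34 and 5.49 CPM in Hyper libraries. All Hyper values lay below all others, and the log2 difference was −1.55 (SE 0.38, adjusted p = 0.00855) against ENR- and −2.14 (SE 0.36, adjusted p = 0.00167) against -VE-organoids (9.87% of all genes called). The latter was −1.48 (adjusted p = 0.0139) without -VE library 1 and −2.64 without -VE library 2. The summed level of 4 enterocyte genes (Fabp1, Apoa1, Reg1, Rbp2) in the same goblet cells was 332, 185 and 199 CPM in ENR, 108 and 109 in -VE, and 21.6, 26.7 and 45.2 CPM in Hyper libraries. That list was at 0.962 to 1.77% of its enterocyte level in the ENR goblet cells, and S100g at 3.53 to 7.79%. The part of RNA from other cells in the goblet difference was not tested. S100g in enteroendocrine cells was 19.3 and 10.4 CPM in -VE and 1.51, 3.25 and 1.06 CPM in Hyper libraries. These Hyper values rest on few UMIs, from 97, 107 and 86 cells. In transit amplifying cells it was 29.9 and 26.8 CPM in -VE and 4.72, 21.9 and 9.90 CPM in Hyper libraries. In the enteroendocrine class (log2 difference −2.90, adjusted p = 0.0083) and the transit amplifying class (−1.33, adjusted p = 0.0436) S100g was lower in Hyper- than in -VE-organoids (4.01 and 17.8% of all genes called). The former call was lost without -VE library 1 (−2.43, adjusted p = 0.0712) and the latter without any library but Hyper library 2 (−1.43 to −0.93), without which it was −2.09 (adjusted p = 0.00117). The 4 enterocyte genes summed to 108 and 250 CPM in -VE and 32.1, 86.9 and 105 CPM in Hyper transit amplifying cells. In enteroendocrine cells the groups overlapped, at 200 and 99.5 CPM in -VE and 56.1, 112 and 199 CPM in Hyper libraries. The part of RNA from other cells was not tested here either. For S100g in stem cells the Hyper range covered the ENR range and overlapped the -VE range. It was 15.1 to 23.7 CPM in ENR, 30.4 and 37.5 CPM in -VE, and 6.19, 32.0 and 16.7 CPM in Hyper libraries (adjusted p = 0.803 against ENR).

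Of 10 genes of calcium absorption and vitamin D, 5 passed the filter on low counts, and 2 were called higher and 0 lower in Hyper- against ENR-organoids (22.9% of all genes called). Vdr, the vitamin D receptor, was 91.0, 83.6 and 80.2 CPM in ENR, 68.4 and 97.1 CPM in -VE, and 46.8, 53.9 and 51.2 CPM in Hyper libraries. All Hyper libraries were below all others, and the log2 difference from ENR of −0.87 (SE 0.12, adjusted p = 0.000418) did not reach 2-fold. The 2 called genes were nearly silent and passed the filter on low counts only through the Hyper libraries. The test could hardly find them lower, so their direction is not a result. Trpv6, the apical calcium channel, was at most 0.0113 CPM in ENR and 0.0361 to 0.210 CPM in Hyper libraries (log2 difference 3.40, adjusted p = 0.00798). Cyp27b1, which activates vitamin D, was 0.0785 to 0.154 CPM in ENR and 0.388 to 0.520 CPM in Hyper libraries (log2 difference 1.95, adjusted p = 0.00144).

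Of the annexin-binding members none was called over all cells in Hyper- against ENR-organoids. S100a11 was 142, 130 and 151 CPM in ENR, 173 and 197 CPM in -VE, and 250, 307 and 358 CPM in Hyper libraries. The 3 groups did not overlap, and the log2 difference between Hyper and ENR of 0.99 (SE 0.13, adjusted p = 0.000404) was just short of 2-fold. S100a10 was 251, 274 and 297 CPM in ENR, 262 and 308 CPM in -VE, and 321, 341 and 373 CPM in Hyper libraries, and its log2 difference was 0.20 (adjusted p = 0.121). Groups that do not overlap were common, at 61% of all genes for Hyper against ENR, 64.5% for Hyper against -VE and 44% for -VE against ENR, and the members were 4 of 9 in each.

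S100a6 over all cells was 26.6, 22.4 and 50.7 CPM in ENR, 47.4 and 168 CPM in -VE, and 28.0, 86.6 and 244 CPM in Hyper libraries. The groups overlapped, and the log2 difference between Hyper and ENR was 1.71 (SE 0.78, adjusted p = 0.0919). It was 2.19 (adjusted p = 0.019) without Hyper library 1 and 0.65 (adjusted p = 0.432) without Hyper library 3. Without the revival stem cells it was 1.25 (adjusted p = 0.176). S100a4 was 0.0617, 0.0651 and 0.112 CPM in ENR, 0.0410 and 0.0941 CPM in -VE, and 0.065, 0.19 and 0.476 CPM in Hyper libraries, with a log2 difference of 1.45 (adjusted p = 0.122). With culture series as a block S100a4 was called (log2 difference 1.28, adjusted p = 0.0329), which brings the count of called members to 2. This call rests on low counts. Revival stem cells held 6 and 15 UMIs of S100a4 in Hyper libraries 2 and 3, or 22.2 and 34.9% of its UMIs there. Without the revival stem cells, and with no block, the log2 difference of S100a4 was 0.98 (adjusted p = 0.218). The 7 stromal markers, several of fibroblasts, summed to 0.0449 to 0.0895 CPM in ENR and 0.532 to 0.859 CPM in Hyper libraries, and their part in the S100a4 difference was not tested.

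The annotation gives the class of each organoid cell and not its cluster. The stem and transit amplifying classes join clusters that lay largely apart by medium, so that medium and cluster cannot be told apart within them. Within the stem class 2 of 8 tested members, S100a6 and S100a13, rose in Hyper- against ENR-organoids (18% of all genes called). S100a6 was 8.13, 9.08 and 6.42 CPM in ENR, 18.4 and 77.8 CPM in -VE, and 24.9, 48.9 and 195 CPM in Hyper libraries. ENR lay below both other groups, which overlapped each other. The log2 difference between Hyper and ENR was 3.39 (SE 0.86, adjusted p = 0.00963), and that between -VE and ENR was 2.58 (SE 0.91, adjusted p = 0.187). With culture series as a block the latter was 2.91 and was called (adjusted p = 0.0276). Hyper library 3 set much of the size, since the Hyper difference was 2.09 (adjusted p = 0.017) without it, and -VE library 2 that of the -VE difference, which was 1.24 (adjusted p = 0.784) without it.

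S100a13 in stem cells was 6.43, 6.89 and 8.77 CPM in ENR, 5.42 and 6.18 CPM in -VE, and 12.6, 18.0 and 21.7 CPM in Hyper libraries. Every Hyper library lay above every other library. The log2 difference was 1.16 (SE 0.22, adjusted p = 0.00208) from ENR and 1.48 (SE 0.23, adjusted p = 0.000964) from -VE, the single call among 8 members in Hyper- against -VE-organoids (16.5% of all genes). Without Hyper library 3 the difference from ENR was 0.96 and no longer 2-fold. In the transit amplifying class S100a13 was called in both comparisons too, at 1.31 (SE 0.24, adjusted p = 0.00168) from ENR (20.9% of all genes) and 1.27 (adjusted p = 0.00464) from -VE (17.8%).

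S100a10, S100a11 and S100a14 were not called in Hyper stem cells, since their differences from ENR passed the adjusted p but were under 2-fold. With S100a6 and S100a13, 5 of 8 members passed the adjusted p alone, beside 49.5% of all genes. S100a11 was 179, 161 and 157 CPM in ENR, 177 and 179 CPM in -VE, and 284, 342 and 384 CPM in Hyper libraries (log2 difference from ENR 0.91, SE 0.11, adjusted p = 0.000145). S100a10 was 223, 235 and 233 CPM in ENR, 254 and 289 CPM in -VE, and 352, 376 and 415 CPM in Hyper libraries (0.62, SE 0.08, adjusted p = 0.000281). For both genes all Hyper libraries lay above all others. S100a14 was 10.1, 10.1 and 10.2 CPM in ENR, 12.4 and 17.3 CPM in -VE, and 15, 16.9 and 25.5 CPM in Hyper libraries, and ENR lay below the other 2 groups (0.81, SE 0.22, adjusted p = 0.0124). In -VE- against ENR-organoids 0 of 8 members were called in stem cells (0.503% of all genes), with 3 at an unadjusted p under 0.05 and 0 called by DESeq2, while the block of culture series gave 1, S100a6. S100a1, S100a16 and S100g did not differ beyond the spread between libraries in Hyper- against ENR-organoids (adjusted p = 0.647, 0.698 and 0.803).

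In enterocytes Hyper libraries 2 and 3 had few cells, and Hyper library 1, with 7, was left out of the fit. Of 8 members tested, 4 were called higher in Hyper than in ENR enterocytes (10.9% of all genes called). S100a6 was 65.9, 39.4 and 131 CPM in ENR, 163 and 551 CPM in -VE, and 896 and 1932 CPM in Hyper libraries. The groups formed 3 separate ranges, and the log2 difference was 4.10 (SE 0.59, adjusted p = 0.00117) for Hyper against ENR and 2.09 (SE 0.56, adjusted p = 0.0486) for -VE against ENR. Without ENR library 3 the former was 4.75 (adjusted p = 0.00211), and without Hyper library 3 it was 3.44 (adjusted p = 0.00629). The call for -VE was lost without ENR library 1 or 2, and without -VE library 2 its difference was 0.97 (adjusted p = 0.488). S100a11 was 103, 90.7 and 155 CPM in ENR, 228 and 383 CPM in -VE, and 494 and 1039 CPM in Hyper libraries. Its ranges were again separate and every pair of groups was called, at 2.67 (SE 0.34, adjusted p = 0.000632) for Hyper against ENR, 1.34 (adjusted p = 0.0413) for Hyper against -VE (6.87% of all genes) and 1.33 (adjusted p = 0.0381) for -VE against ENR (3.34%). The last was lost without the same 3 libraries, and was 0.91 (adjusted p = 0.309) without -VE library 2.

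S100a13 and S100a14 were called in Hyper enterocytes against both other groups. S100a13 was 13.8, 17.3 and 25.6 CPM in ENR, 17.0 and 19.9 CPM in -VE, and 53.3 and 53.4 CPM in Hyper libraries. S100a14 was 13.1, 16 and 29.6 CPM in ENR, 34.5 and 26.1 CPM in -VE, and 57.8 and 109 CPM in Hyper libraries. For both, the Hyper libraries lay above all others, and the log2 differences from ENR were 1.44 (SE 0.26, adjusted p = 0.00375) and 1.95 (SE 0.38, adjusted p = 0.00561). All 4 calls against ENR held whichever library was left out. Leaving out Hyper library 2 or 3 leaves 1 Hyper library of 21 or 58 cells, which is then assumed to vary like the other groups. S100a13 was at an adjusted p of 0.0498 without Hyper library 2, and the log2 difference of S100a11 was 2.03 without Hyper library 3. The calls of S100a13, S100a14 and S100a11 against -VE were each lost without some libraries. S100a13 was lost without Hyper library 2 (adjusted p = 0.0633), S100a11 without ENR library 1, -VE library 1 or Hyper library 3 (0.0615 to 0.203), and S100a14 without ENR library 2, either -VE library or Hyper library 3 (0.0587 to 0.191). With culture series as a block S100a11 (0.75, adjusted p = 0.0596) and S100a14 (0.93, adjusted p = 0.0255) were no longer called against -VE.

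**Figure D3:**
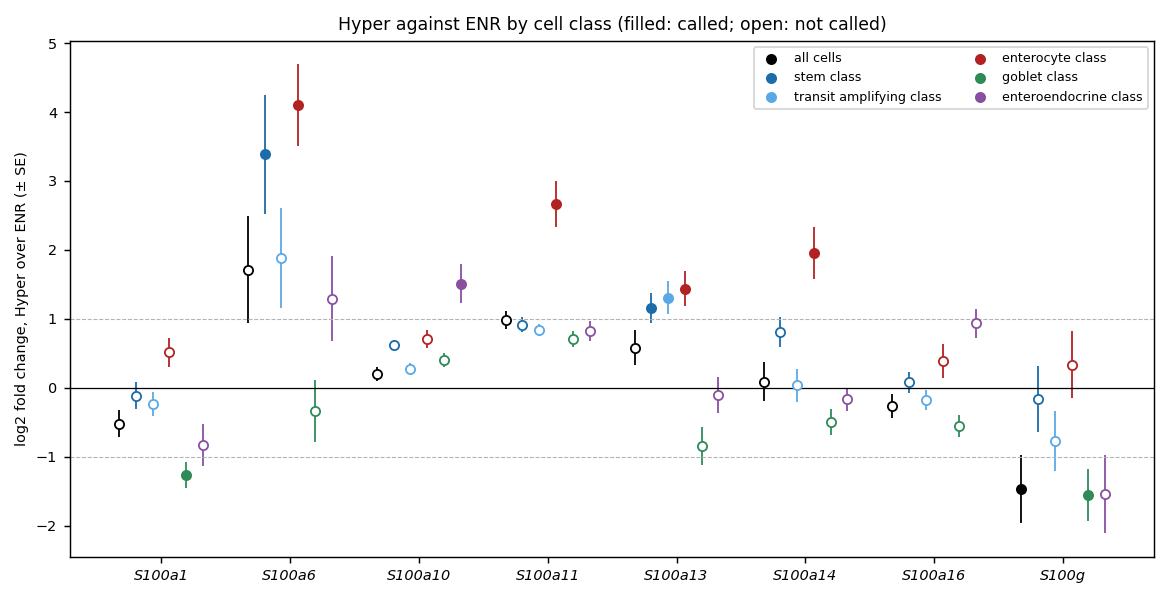
Log2 fold change of each S100 gene in Hyper- over ENR-organoids with its standard error (bars), for all cells and for 5 classes; filled points were called (adjusted p under 0.05 and at least 2-fold, dashed lines) and open points were not, and S100a4 is not drawn. S100a6 reached 4.10 in enterocytes and 3.39 in stem cells but lay below 0 in goblet cells, and S100a13 was called higher in stem, transit amplifying and enterocyte classes and lay below 0 in goblet cells.

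The goblet and enteroendocrine classes each gave another pattern. In goblet cells 2 of 8 members were called, both lower in Hyper- than in ENR-organoids (13.3% of all genes called), S100g as above and S100a1. S100a1 in goblet cells was 35.0, 29.0 and 47.8 CPM in ENR, 24.1 and 19.7 CPM in -VE, and 16.4, 17.6 and 15.4 CPM in Hyper libraries. The 3 ranges were separate, and the log2 difference between Hyper and ENR was −1.27 (SE 0.19, adjusted p = 0.00048). At the adjusted p alone 6 of 8 members passed in goblet cells (31% of all genes). S100a13 and S100a16 were lower in Hyper goblet cells by less than 2-fold (−0.84, adjusted p = 0.0357, and −0.56, adjusted p = 0.0208). S100a10 and S100a11 were higher by less than 2-fold (0.40, adjusted p = 0.00922, and 0.71, adjusted p = 0.000602). S100a6 in goblet cells was 76.2, 90.7 and 280 CPM in ENR, 197 and 269 CPM in -VE, and 73.2, 119 and 188 CPM in Hyper libraries. It was called in neither comparison with -VE without a block. With culture series as a block it was called lower in Hyper- than in -VE-organoids (−1.49, adjusted p = 0.000168, against −0.92 and 0.205 with no block) and higher in -VE- than in ENR-organoids (1.30, adjusted p = 0.00383, against 0.58 and 0.582).

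In the enteroendocrine class S100a10 was the 1 called member of 8 in Hyper- against ENR-organoids (7.4% of all genes called). It was 35.7, 82.3 and 76.0 CPM in ENR, 73.1 and 129 CPM in -VE, and 203, 170 and 150 CPM in Hyper libraries. All Hyper libraries lay above all others, with a log2 difference from ENR of 1.51 (SE 0.29, adjusted p = 0.00538). With culture series as a block S100a6 was also called in the transit amplifying class (1.48, adjusted p = 0.04, against 1.89 and 0.0528 with no block) and in the enteroendocrine class (1.33, adjusted p = 0.0297, against 1.29 and 0.195 with no block).

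The difference of these differences was tested with library as a block. For 5 of 8 members the Hyper to ENR difference itself differed between goblet and stem cells (14.4% of all genes). The difference in goblet cells minus that in stem cells was −3.08 (SE 0.44, adjusted p = 0.000276) for S100a6 and −1.97 (SE 0.16, adjusted p = 1.53e-06) for S100a13. It was −1.30 (SE 0.20, adjusted p = 0.000564) for S100a14, −1.11 (SE 0.21, adjusted p = 0.00241) for S100a1 and −0.64 (SE 0.10, adjusted p = 0.000674) for S100a16. S100a10 and S100a11, which were higher in Hyper-organoids in both classes, gave −0.24 (adjusted p = 0.052) and −0.23 (adjusted p = 0.166). Between the enteroendocrine and the stem class the difference also differed for 5 of 8 members (11.8% of all genes). It was higher in the enteroendocrine class for S100a10 (0.87) and S100a16 (0.80) and lower for S100a1 (−0.82), S100a13 (−1.36) and S100a14 (−1.01).

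Of 12 annexins 11 were tested, and 5 were called higher and 0 lower in Hyper- against ENR-organoids over all cells, beside 22.9% of all genes called. Their median log2 difference was 0.33, against −0.01 over all genes. Anxa1, the partner of S100a11 and a gene of the revival stem list, was 0.319, 0.0976 and 0.191 CPM in ENR, 2.01 and 3.56 CPM in -VE, and 8.79, 15.1 and 24.8 CPM in Hyper libraries. The 3 ranges were separate (log2 difference between Hyper and ENR 6.23, SE 0.56, adjusted p = 4.56e-05). Anxa6 (3.48), Anxa5 (3.20) and Anxa3 (2.59) were called too, as was Anxa8 (5.23). Anxa8 was nearly absent, at 0 to 0.0103 CPM in ENR and 0.00722, 0.176 and 0.355 CPM in Hyper libraries, so that the groups overlapped. It passed the filter on low counts only through Hyper libraries 2 and 3, so its direction is not a result. Anxa2, the partner of S100a10, was 194, 214 and 229 CPM in ENR and 155, 182 and 229 CPM in Hyper libraries, and the groups overlapped (−0.30, adjusted p = 0.105). In stem cells Anxa2 was 130, 135 and 123 CPM in ENR and 186, 211 and 260 CPM in Hyper libraries, with a difference under 2-fold that was not called (0.65, SE 0.11, adjusted p = 0.00131). Of 4 S100 receptors (Ager, Tlr4, Bsg, Cd36) only Cd36 was called (−3.12, adjusted p = 0.00314), at 0.943 to 2.69 CPM in ENR and 0.0665 to 0.368 CPM in Hyper libraries (22.9% of all genes called). Within enterocytes Cd36 was 22, 21.7 and 8.42 CPM in ENR libraries and 13.9 and 1.03 CPM in Hyper libraries 2 and 3, and the ranges overlapped. The part of the lower share of enterocytes in the Cd36 difference was not tested.

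The genes whose levels over the 50 sums were most like those of a member were found among 8016 genes. For S100a11 they were Anxa3 (r = 0.93), Perp (0.88) and Anxa1 (0.87), and for S100a6 Ctsh (0.81), Anxa3 (0.80) and Camk2d (0.79). S100a10 was nearest to Gsta4 and Aldh2 (both 0.92) and Glo1 (0.91). S100a13 was nearest to Tm4sf4 (0.94), Paxx (0.93) and Tmem59 (0.92), and S100a1 to Gabarap (0.93), 4833439L19Rik (0.92) and Etnk1 (0.91). S100a14 was nearest to S100a13 and Krt7 (both 0.86) and Tm4sf4 (0.83), S100a16 to Ctsh (0.74), Krt8 and Krt19 (both 0.73), and S100g to Gm3776 (0.93), 2200002D01Rik and Cyb5a (both 0.91). S100a4, with too few UMIs, reached at most 0.66 (Ctsh), followed by Pmepa1 and Clu (both 0.65).

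In the colon, 1 DSS library was set beside 1 normal library, so no test was possible and intervals (95%, exact Poisson) cover counting error only. Of the 9 members 3 were past 2-fold, beside 7.11% of 12074 genes. S100g was 32.8 CPM (30.3 to 35.4) in the normal and 5.93 CPM (5.12 to 6.83) in the DSS library, a ratio of 0.181. S100a11 was 204 CPM (198 to 211) in the normal and 409 CPM (402 to 416) in the DSS library, and S100a4 was 1.96 CPM (1.39 to 2.68) and 6.05 CPM (5.23 to 6.96). The other ratios of DSS to normal lay between 0.772 for S100a10 (1105 and 853 CPM) and 1.77 for S100a14 (141 and 249 CPM). S100a6 stood at 5612 and 5671 CPM.

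Leukocytes differed between the 2 colonic libraries. The 9 leukocyte markers summed to 266 CPM in the normal and 534 CPM in the DSS library, the 5 neutrophil markers to 1.81 and 2253 CPM, and S100a8 and S100a9 to 0 UMIs in the normal (3 UMIs would be 0.151 CPM) and 27607 and 44974 UMIs in the DSS library. Clusters in which over 50% of cells held a Ptprc UMI, 6 of 25, held 19.3% of the cells of the normal and 23% of those of the DSS library. Without these clusters 1 member, S100g, stayed past 2-fold, at 34.1 and 6.27 CPM (ratio 0.184, 6.45% of genes). S100a11 was then 199 and 394 CPM (ratio 1.98), and S100a4 was 1.05 and 0.952 CPM. S100a4 reached 615 CPM in cluster 18 of the DSS library (33 cells, 63.6% with Ptprc), which also held 1735 CPM of the stromal marker Col1a1. S100a11 reached 2969 CPM in cluster 15 (66 cells, 68.2% with Ptprc), which held 88999 CPM of S100a8. Cluster 22 (21 DSS cells, 4.76% with Ptprc) also held 83072 CPM of S100a8, and leaving it out as well left S100g as the single member past 2-fold (6.39% of genes). Without every cell that held a Ptprc UMI, S100g and S100a4 (0.53 and 1.65 CPM) were past 2-fold (6.92% of genes), and with every barcode of the matrices 3 members were (8.3%).

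**Figure D4:**
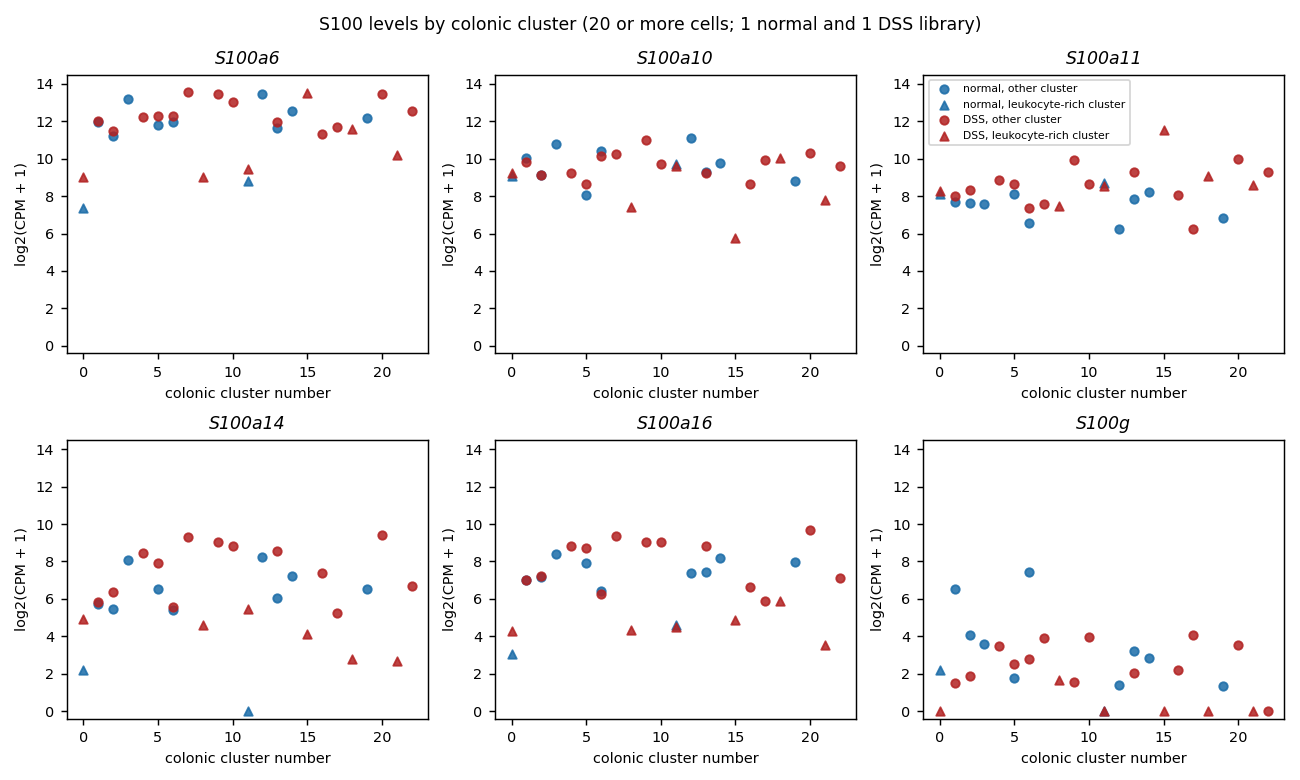
Level of 6 S100 genes, as log2(CPM + 1), in colonic clusters of 20 or more cells, by cluster number (a name, not an order); blue is the normal library, red the DSS library, and triangles mark leukocyte-rich clusters. S100g stood at 172 and 91.5 CPM in clusters 6 and 1 of the normal library and at 5.95 and 1.81 CPM in the same clusters of the DSS library.

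In the normal colonic library S100g was highest in 2 clusters rich in Car1, a carbonic anhydrase of colonocytes. In cluster 6 it was 172 CPM in the normal (64 cells) and 5.95 CPM in the DSS library (157 cells), and in cluster 1 it was 91.5 and 1.81 CPM (95 and 207 cells). The highest level in the DSS library was 15.9 CPM, in cluster 17. Car1 itself was 31540 and 22813 CPM in cluster 6 and 12084 and 7853 CPM in cluster 1. Over the 5 clusters that both libraries shared with at least 20 cells each and that were not leukocyte-rich, S100g was lower in the DSS library in 4.

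S100a6, S100a11 and S100a14 were higher in the DSS library in all 5 of these shared clusters. The clusters come from the same pair of libraries and are not replicates, and the share of all genes higher in all 5 was not counted. The ratios of DSS to normal ran from 1.06 to 1.38 for S100a6, from 1.24 to 2.69 for S100a11 and from 1.07 to 5.66 for S100a14, the highest of the latter being 66.0 and 374 CPM in cluster 13. Across clusters that were not leukocyte-rich, S100a6 ranged from 2350 to 11088 CPM in the normal and from 2524 to 12265 CPM in the DSS library. S100a11 ranged from 75.3 to 295 CPM in 9 normal and from 74.3 to 1003 CPM in 13 DSS clusters, and was highest in clusters 20 (1003 CPM) and 9 (965 CPM), for which the normal library held under 20 cells. S100a1, S100a10 and S100a13 were higher in the DSS library in 1, 1 and 2 of the 5 shared clusters. S100a16 was higher in 4 of 5, with ratios from 0.901 to 2.58, and S100a4, at 0 in 4 of the 5 normal clusters, was higher in 2.

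The other 8 S100 genes of the table were scarce in the organoids. S100a3, S100a5, S100b and S100z had 2 to 280 UMIs per library, and 0 of 4 were called in any of the 3 comparisons over all cells by edgeR. The shares of all genes called were 22.9% for Hyper against ENR, 18.6% for Hyper against -VE and 2.55% for -VE against ENR. S100a2, S100a7a, S100a8 and S100a9 had at most 7 UMIs in an organoid library and were not tested.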

How the data were processed

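Single-cell 3′ libraries of 8 organoid cultures and 2 colonic crypt preparations were used. Per the methods, the authors aligned and counted reads with Cell Ranger 3.0.0 (3.1.0 in the matrix headers) on mm10 and clustered cells with Seurat 3.1.4. The values deposited are raw UMI counts per gene and cell, in matrices and in a table of 25204 cells and 23810 genes, and both held the same counts for the kept cells (0 entries differed). The methods state a minimum of 1500 genes per cell, which 1375 of these cells did not reach. No doublets were removed beyond what the authors did. Cell classes and colonic clusters were the authors' deposited annotation.

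UMI counts were summed per library and class (at least 10 cells) and tested with edgeR 4.0.16 (quasi-likelihood, TMM factors, filterByExpr, R 4.3.3) over all genes and organoid groups, with Benjamini-Hochberg adjustment and no block. The difference between classes was an interaction with library as block. The scripts were tested on simulated counts. ENR and Hyper libraries of the same assumed culture series deviated together from their group means (r = 0.192, 0.17 and 0.436 over 16037 genes). For ENR and Hyper libraries of different series r ran from −0.292 to 0.129. Deviations from a group mean cancel out within the group, so r within and between series are partly tied by arithmetic. A fit with culture series as a block is therefore given where it changes a call. It was run for the contrasts over all cells and in the stem, transit amplifying, goblet, enteroendocrine and enterocyte classes. DESeq2 1.42.0, other filters and scalings, other cell sets and leaving out each library were the alternatives. Intervals and floors (3 UMIs) cover counting error only. Members named are all 9. Members, gene lists and motifs were chosen with earlier results of these data known. In the transit amplifying, goblet, enteroendocrine and enterocyte classes, refits with 1 library left in a group and blocked fits of the contrasts with -VE were added after the data were seen. So were the results without revival stem cells or cluster 22. Library depth was 89124015 to 170019527 UMIs in the organoids.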

Additional observations from a re-analysis of the deposited data

Results flagged for a closer look

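The difference between Hyper- and ENR-organoids itself differed between cell classes for 10 pairs of member and class, by a test of that difference (edgeR quasi-likelihood, Benjamini-Hochberg adjusted over all genes, library as block). On the log2 scale the difference in goblet cells minus that in stem cells was −1.11 for S100a1, −3.08 for S100a6, −1.97 for S100a13, −1.30 for S100a14 and −0.64 for S100a16. The difference in enteroendocrine cells minus that in stem cells was −0.82 for S100a1, 0.87 for S100a10, −1.36 for S100a13, −1.01 for S100a14 and 0.80 for S100a16. The shares of all genes past the same threshold were 14.4% for goblet and 11.8% for enteroendocrine cells.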

How the results depend on the processing

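The count of members called in Hyper- against ENR-organoids over all cells, 1, was 2 with DESeq2, 2 without TMM factors, 2 with the replicate block of culture series and 2 with every barcode of the matrices, and 0 to 4 when single libraries were left out. In Hyper- against -VE-organoids the 1 called member became 0 to 3 without single libraries, and in -VE- against ENR-organoids the count was 0 throughout. In stem cells the 2 called in Hyper- against ENR-organoids became 1 to 3 and the 1 in Hyper- against -VE-organoids 1 to 2 without single libraries. The 0 in -VE- against ENR-organoids became 1 with no filter on low counts and 1 with the replicate block, both times S100a6 (log2 difference 2.60 and 2.91), and the cause was not tested. In the other classes the 8 calls in Hyper- against ENR-organoids became 4 with at least 30 cells per class and library, which leaves fewer libraries, and 5 to 10 without single libraries, the lowest where a class kept too few Hyper libraries. With the enteroendocrine in place of the goblet class, the interaction changed sign for S100a10 (0.87) and S100a16 (0.80). In the colon the 3 members past 2-fold became 1 without leukocyte-rich clusters, 1 without these and cluster 22, and 2 without cells holding a Ptprc UMI. Of 111 such counts 85 stayed within 1.5 times, but an equal count can hold another member. With at least 10 CPM in 2 libraries, S100a11 was called in place of S100g against ENR-organoids over all cells. Against -VE-organoids S100a13 was then called in its place. The -VE libraries number 2, which limits every comparison with them, and the revival stem class rests on 5 to 26 cells per library.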
